A study of Mus musculus with 26 samples.

Results

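The cell cycle and DNA replication genes on these arrays were collected by gene symbol, and none of their probe sets passed the threshold in any comparison of genotypes in mouse embryo hearts. The rule took every probe set annotated with a single symbol of an A, B, D or E cyclin, a numbered Cdk, Cdkn, Cdc, Plk, Bub, E2f or Rfc gene, an Aurora kinase, Mcm2 to Mcm7, Rpa1 to Rpa3, Rrm1, Rrm2, a primase or DNA polymerase subunit, or Pcna, Top2a, Tyms, Tk1 or Mki67. Cdkn1c and the Cdc42 genes were left out. It found 93 probe sets of 72 genes, 69 of them on the A array and 24 on the B array, among 7561 probe sets of 6137 genes that carried a single symbol. The rule uses names alone, so it also took genes such as Ccnb1ip1, Cdkn2aipnl, Cdc5l, Cdc73 and Cdc37, whose best known roles lie outside the core cell cycle.

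Total RNA of the whole heart of 13 embryos at embryonic day 12.5 was hybridised, with 1 A and 1 B array per heart. In this line the NK2-specific domain is deleted from Nkx2.5, a homeobox regulator that cardiac progenitors and cardiomyocytes express. There were 4 null hearts (3, 4, 8 and N3), 4 heterozygous hearts (5, 6, 12 and N2) and 5 wild-type hearts (1, 2, 7, 9 and N1). The genotype was the only difference between groups that the labels gave, with no strain, sex, litter or date, so p-values measure the spread between these hearts. A change in the share of dividing cells and a change of RNA per cell cannot be told apart in RNA of a whole organ.

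Cells divide in an ordered cycle. D cyclins with Cdk4 release E2F factors from the retinoblastoma proteins, E2F factors switch on the genes for DNA replication, cyclins E and A with Cdk2 drive S phase, and cyclin B with Cdk1 and the Aurora and Polo kinases drive mitosis. Inhibitors of the Cdkn families hold the kinases back. In the midgestation heart cardiomyocytes contract and still divide, so that transcripts of this machinery are normally present in the organ.

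Values were linear intensities that the authors had scaled per array, and they can fall below 0. A probe set was tested where at least 4 arrays exceeded a floor of 887 on A or 1373 on B, which is 2 times the noise of the table, and each genotype had at least 2 values. Of the 93 member probe sets 65 passed, covering 55 genes. That is 69.9% of the members, against 34.4% of all 13069 probe sets other than controls and 42.0% of those with a single symbol. Values of all measured hearts exceeded the floor in 52 of the 93, and 18 never exceeded it. Levels of different probe sets are not comparable on arrays. They were compared only to pick the brightest probe set of a gene or a role.

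Blank cells touch many of these members. The A arrays of heterozygous hearts 6 and N2 and of wild-type heart 1 and the B arrays of null heart 3 and wild-type hearts 9 and N1 had 62.5% to 81.3% of their cells blank. Most members on the A array therefore rest on hearts 5 and 12 as the only heterozygous hearts. Among markers of the tissue, all 10 cardiomyocyte genes on the arrays were above the floor in some heart. So were 8 of 11 erythroid genes (Epb42, Epor and Gata1 never were). Of 6 liver genes on the arrays, 2 exceeded the floor in some heart and 0 could be tested. The liver genes Alb, Apoa1, Apoa2 and Ttr never exceeded it. All 10 cardiomyocyte genes had a log2 difference above 0 in null against wild-type hearts (median 0.37). Their mean log2 deviation per heart ranged 0.11 to 0.43 in null, -0.58 to 0.21 in heterozygous and -0.63 to 0.48 in wild-type hearts. The erythroid genes ranged -0.22 to 0.97 in null, -0.41 to 0.19 in heterozygous and -0.44 to 0.49 in wild-type hearts, and null heart 8 was the highest. Of 7 tested endothelial and endocardial genes (Flt1 was never above the floor), 6 were below 0 in null against wild-type hearts (median -0.23) and 6 in null against heterozygous hearts (median -0.31). Their mean deviation per heart ranged -0.39 to 0.04 in null, -0.09 to 0.30 in heterozygous and -0.25 to 0.22 in wild-type hearts. The part of these markers in the member results was not tested.

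Promoter windows are shown because the rule did not use sequence, and because E2F factors are members and known regulators of other members. RefSeq windows of 300 bases, 250 before to 50 after a gene's start in GRCm38.p6, were matched for 62 of the 72 genes. Both strands were searched for the E2F letters TTTCCCGC, TTTCGCGC, TTTGCCGC and TTTGGCGC, and for the cell cycle homology region (CHR) letters TTTGAA and TTCGAA. A match is a match of letters and not a measured site. Matches of the 2 kinds were counted separately, and neighbouring E2F matches may overlap on opposite strands. The 4 windows with the most E2F matches among the helicase genes and the window of Cdk1, which holds both kinds, read as follows, with matches in capitals (Mcm3 chr1:20820263-20820562, minus strand; Mcm5 chr8:75109259-75109558, plus strand; Mcm6 chr1:128359656-128359955, minus strand; Mcm7 chr5:138171834-138172133, minus strand; Cdk1 chr10:69352863-69353162, minus strand).
Mcm3: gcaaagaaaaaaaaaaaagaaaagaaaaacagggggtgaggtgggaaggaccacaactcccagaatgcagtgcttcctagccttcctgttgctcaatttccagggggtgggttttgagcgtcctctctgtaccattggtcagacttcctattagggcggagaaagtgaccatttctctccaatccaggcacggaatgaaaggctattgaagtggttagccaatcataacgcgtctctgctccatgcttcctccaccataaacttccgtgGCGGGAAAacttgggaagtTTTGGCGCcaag
Mcm5: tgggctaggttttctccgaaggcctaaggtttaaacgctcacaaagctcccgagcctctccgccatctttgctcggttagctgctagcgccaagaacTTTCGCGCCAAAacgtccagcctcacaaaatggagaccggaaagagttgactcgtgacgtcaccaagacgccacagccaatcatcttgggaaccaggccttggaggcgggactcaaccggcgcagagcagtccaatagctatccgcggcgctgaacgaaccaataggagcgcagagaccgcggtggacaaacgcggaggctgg
Mcm6: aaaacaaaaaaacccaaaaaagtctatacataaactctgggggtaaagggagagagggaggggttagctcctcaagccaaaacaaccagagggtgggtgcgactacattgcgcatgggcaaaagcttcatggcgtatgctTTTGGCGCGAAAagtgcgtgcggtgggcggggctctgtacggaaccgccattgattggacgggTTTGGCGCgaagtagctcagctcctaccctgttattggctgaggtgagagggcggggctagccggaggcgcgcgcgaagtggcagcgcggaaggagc
Mcm7: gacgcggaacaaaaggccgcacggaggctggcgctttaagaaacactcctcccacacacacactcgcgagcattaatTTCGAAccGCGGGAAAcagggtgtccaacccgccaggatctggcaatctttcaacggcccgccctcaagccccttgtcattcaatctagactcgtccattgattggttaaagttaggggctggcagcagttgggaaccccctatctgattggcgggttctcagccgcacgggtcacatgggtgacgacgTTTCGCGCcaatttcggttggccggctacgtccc
Cdk1: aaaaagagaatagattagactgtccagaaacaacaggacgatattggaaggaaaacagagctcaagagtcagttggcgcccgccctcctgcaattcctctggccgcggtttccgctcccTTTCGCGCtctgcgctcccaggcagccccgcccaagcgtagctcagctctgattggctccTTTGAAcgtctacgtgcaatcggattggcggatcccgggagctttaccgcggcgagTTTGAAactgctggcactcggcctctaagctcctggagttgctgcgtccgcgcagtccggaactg

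In the Mcm5 window the capitals are an E2F match on each strand that overlap, and the first run of capitals in Mcm6 is likewise such a pair. In Mcm7 the first run of capitals is a CHR match and the other runs are E2F matches. The Cdk1 window holds 1 E2F match followed by 2 CHR matches. E2F letters stood in 14 of the 72 member windows (19.4%), against 2.26% of all 32851 windows, and in 13 of the 62 member genes (21.0%), against 2.61% of all genes. The 13 genes were Cdc25a, Cdc6, Cdk1, Cdk2, Cdkn2a, E2f3, Mcm3, Mcm5, Mcm6, Mcm7, Pola1, Pold1 and Pole4. CHR letters stood in 23.6% of member windows against 19.2% of all windows, so these short letters were nearly as frequent elsewhere. Mki67 and Top2a, both markers of dividing cells, had 2 and 4 CHR matches.

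The first comparison asked how hearts lacking the domain on both alleles differ from intact ones. In null against wild-type hearts 0 of the 65 member probe sets passed an adjusted p of 0.05 in limma, where 0.0223% of all 4494 tested probe sets did (1 probe set, not a member). At an unadjusted p under 0.05 there were 2 members, Rrm2 and Ccnd3, both lower, where 2.4% of all tested probe sets were. Log2 differences of the members were small and lay between -0.71 and 0.28. Of the 65, 45 were below 0 (69.2%), where 51.4% of all tested probe sets were, and their median was -0.06 against -0.01. Counted with 1 probe set per gene, 38 of 55 genes were below 0 with a median of -0.06, and over all genes the median was -0.01. The 95% interval of the difference lay within 2-fold either way for 64 of the 65 members (98.5%, against 91.8% of all tested probe sets) and within 1.5-fold for 38 (58.5%, against 52.5%).

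Whether null and wild-type hearts overlapped in the members' median depended on 1 wild-type heart, while heterozygous hearts overlapped both with or without it. Over the member genes, the median log2 deviation of a heart from the mean of all hearts ranged -0.07 to -0.01 in null hearts, -0.06 to 0.17 in heterozygous hearts and -0.28 to 0.07 in wild-type hearts. The lowest wild-type value was that of heart 1, which had values for only 17 of the 55 genes. The other 4 wild-type hearts ranged -0.0017 to 0.07, and all 4 null hearts lay below them, the highest being N3 at -0.0070. That margin is small beside the spread of genes within a heart, with quartiles of -0.15 and 0.13 in null heart N3. Over all tested genes the median deviation was -0.01, -0.05, -0.0013 and 0.01 in null hearts 3, 4, 8 and N3. It was -0.08, -0.03, 0.02, 0.01 and 0.04 in wild-type hearts 1, 2, 7, 9 and N1. Null hearts 3 and 4 had member medians of -0.01 and -0.05, the same as over all genes. Leaving out wild-type heart 1 gave 42 of 55 genes below 0 in null against wild-type hearts with a median of -0.07, and 0 members passed the threshold in limma. Leaving out hearts N1, N2 and N3 left 31 of 55 genes below 0 with a median of -0.02, and taking hearts 1 to 6, 7 to 12 and N as blocks left 34 of 55 with a median of -0.07.

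**Figure D1:**
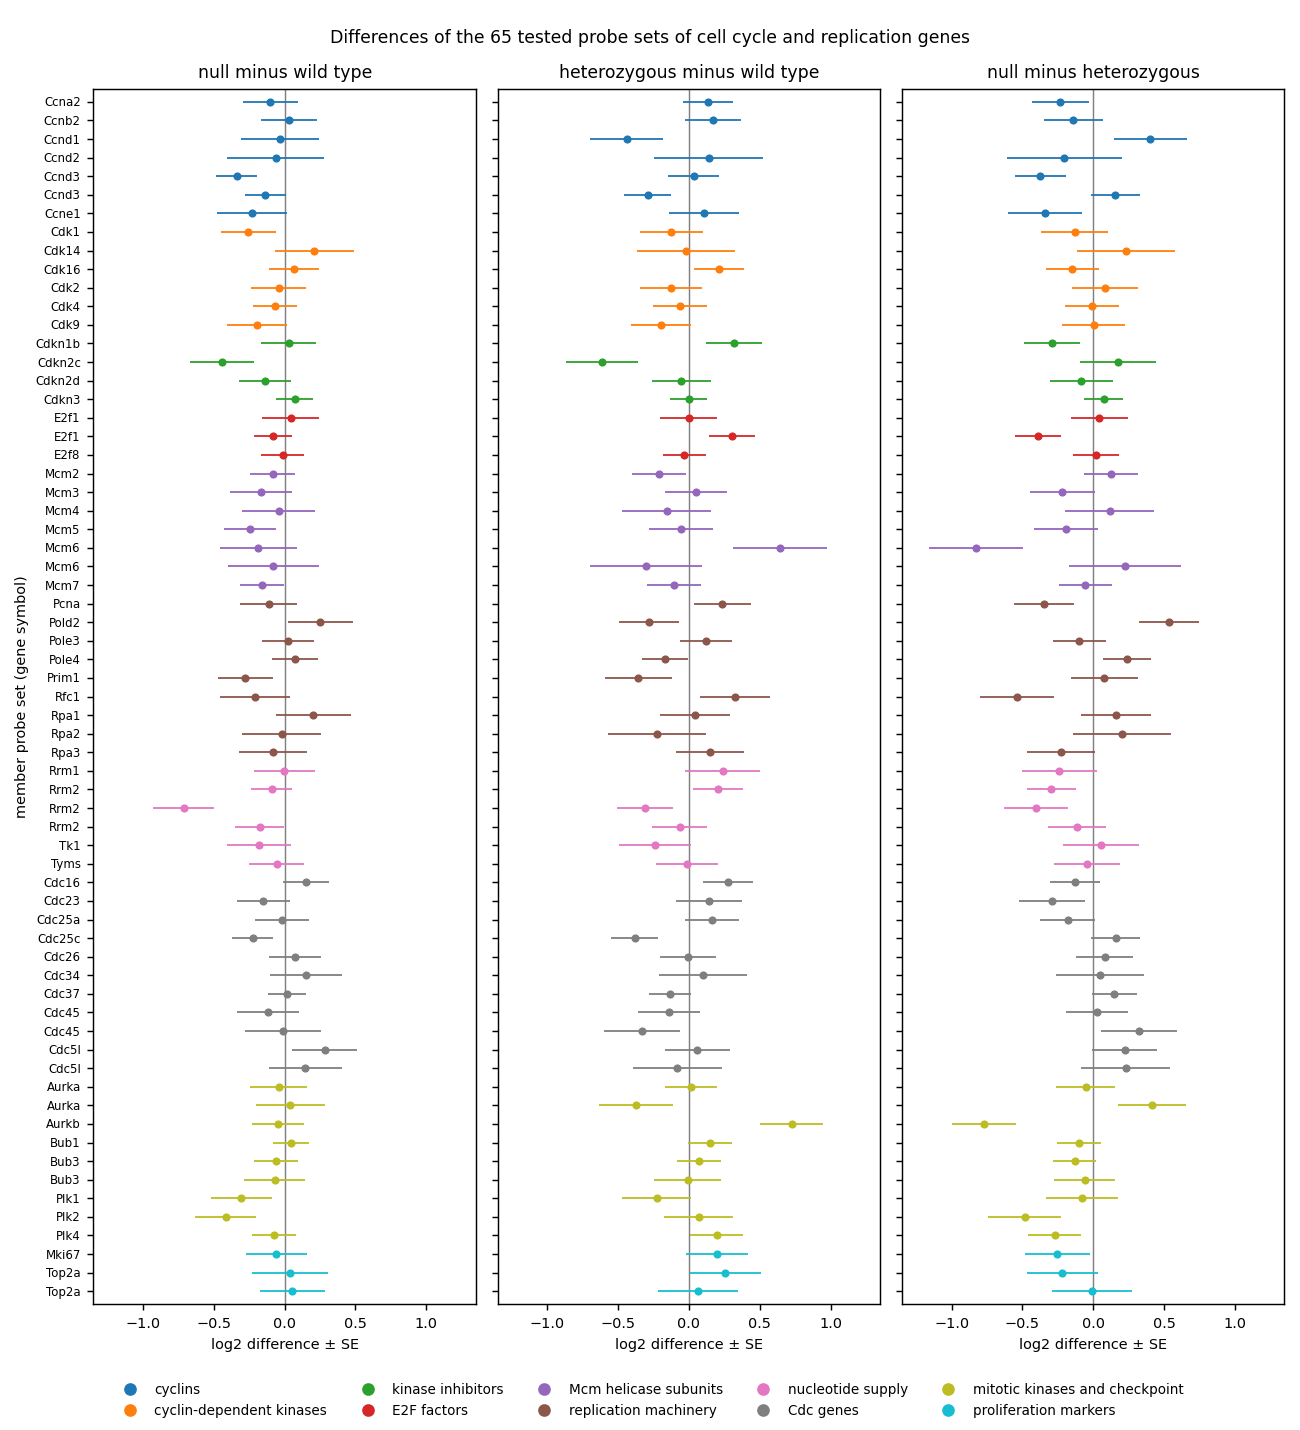
Log2 difference with its standard error (x axis) of each of the 65 tested member probe sets (y axis, 1 row per probe set, coloured by role) for null minus wild type, heterozygous minus wild type and null minus heterozygous. In the left panel 45 of 65 points lie below 0 and the lowest, an Rrm2 probe set, is at -0.71.

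**Figure D2:**
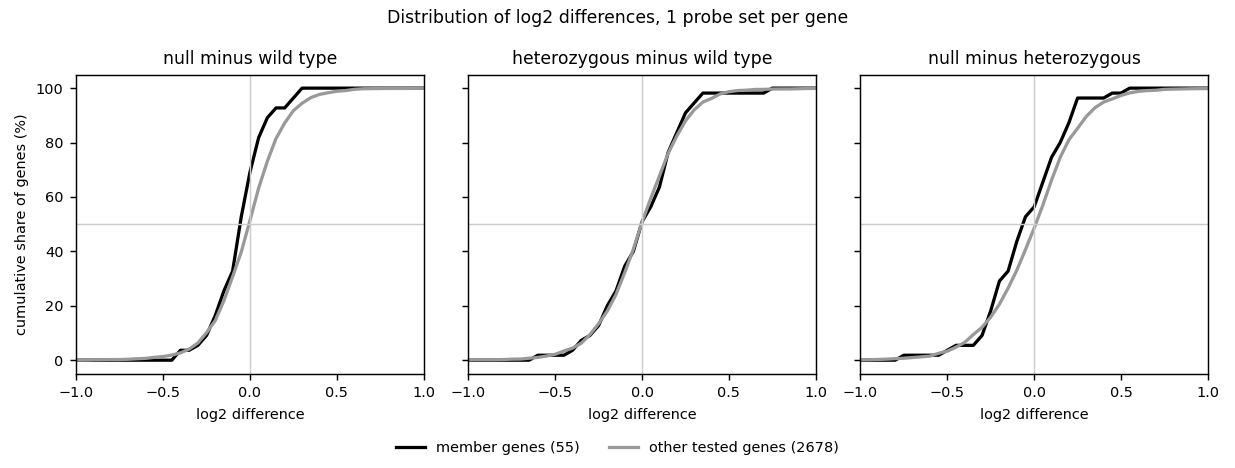
Cumulative share of genes (y axis, percent) at or below each log2 difference (x axis), with 1 probe set per gene, for the 55 tested member genes (black) and the 2678 other tested genes (grey). At 0 the black line stands higher than the grey one for null minus wild type (38 of 55 member genes below 0) and meets it for heterozygous minus wild type (28 of 55).

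In null against wild-type hearts the largest member difference was in nucleotide supply. Rrm2 encodes the small subunit of ribonucleotide reductase, which makes deoxynucleotides and peaks in S phase. Its probe set on the B array had intensities of 3975, 3726 and 2883 in null hearts 4, 8 and N3, then 5413, 4247, 4405 and 4534 in heterozygous hearts 5, 6, 12 and N2, and 5289, 6704, 4663, 8260 and 4519 in wild-type hearts 1, 2, 7, 9 and N1. All 3 measured null hearts lay below all wild-type and all heterozygous hearts. This was the only member whose null hearts were all lower than its wild-type hearts, where 1.2% of all tested probe sets were, and no member had all null hearts higher, where 1.07% of all were.

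The log2 difference of this Rrm2 probe set, null minus wild type, was -0.71 ± 0.21 (SE), with an unadjusted p of 0.00495 and an adjusted p of 0.9999 in limma. Within hearts 1 to 6 it was -0.58, within 7 to 12 it was -0.74 and within the N hearts it was -0.65, where each is a difference of 1 or 2 hearts per genotype. The A array held other Rrm2 probe sets, whose groups overlapped. C81593_rc_f_at had intensities of 8130, 6739, 6415 and 5358 in null hearts, against 7076, 6726, 7670 and 6655 in wild-type hearts 2, 7, 9 and N1, a log2 difference of -0.09 ± 0.14. The probe set m14223_s_at had 3402, 3559 and 3274 in null hearts 3, 4 and N3, against 4689.6, 3353, 3514 and 3984 in the same wild-type hearts, a log2 difference of -0.18 ± 0.17. The 3 probe sets had the same sign but differed by 0.62 on the log2 scale, and only the B probe set separated the genotypes.

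The other genes of nucleotide supply moved little. Rrm1, the large reductase subunit, differed by -0.00145 in log2, Tyms (thymidylate synthase) by -0.06 and Tk1 (thymidine kinase) by -0.18, each null minus wild type and each within its standard error. All 4 genes of the group were below 0, and after quantile scaling 3 of 4 were.

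**Figure D3:**
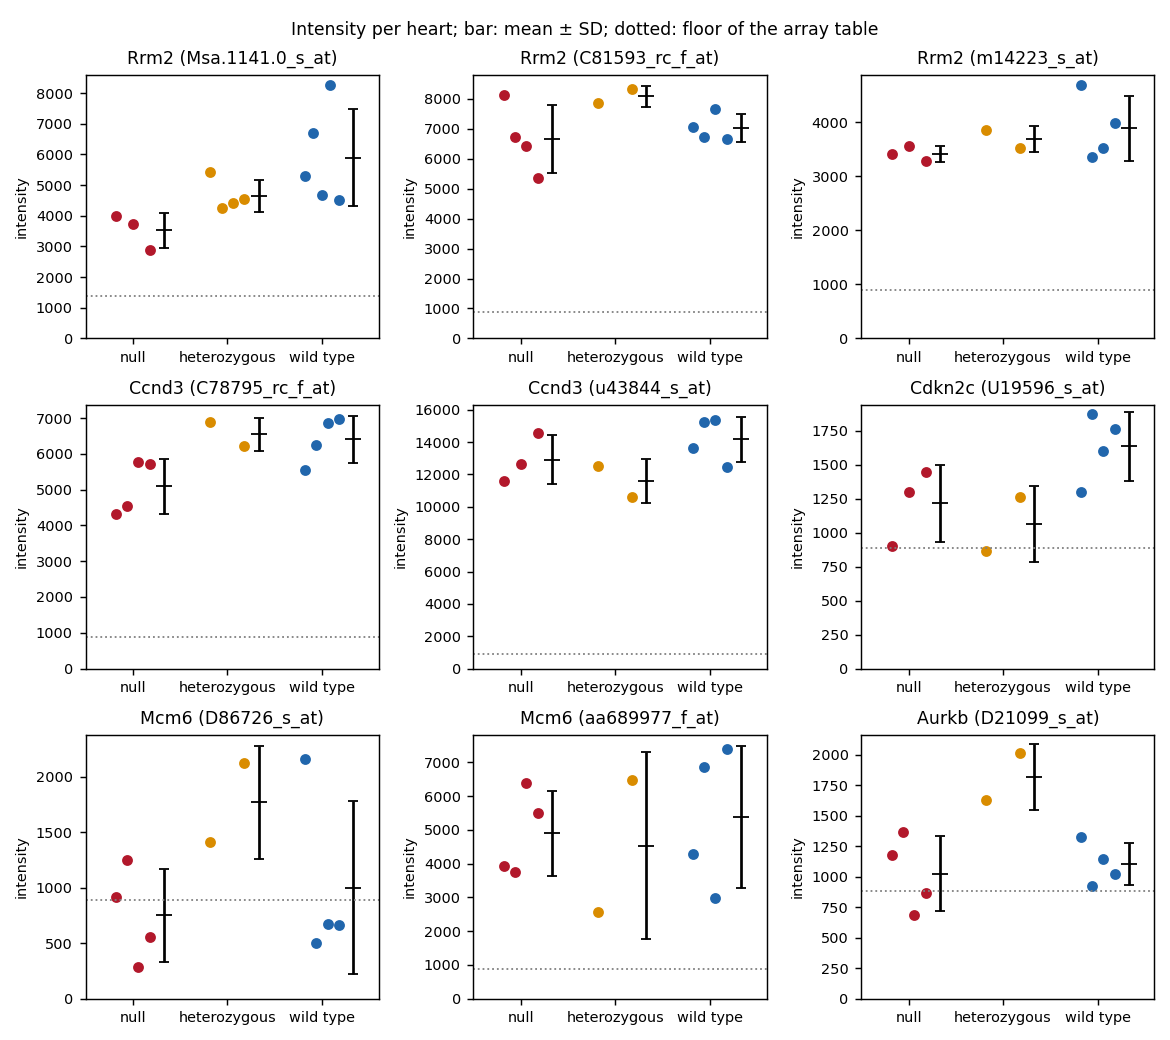
Intensity (y axis, linear from 0) of 9 probe sets in each heart by genotype (x axis), with the mean and SD beside the points and the floor of the table as a dotted line. All null points of the B array's Rrm2 probe set (top left) lie below its wild-type points, whereas the other Rrm2 probe sets overlap. The Mcm6 D86726_s_at, Aurkb and Cdkn2c values lie near the floor, and those of Mcm6 aa689977_f_at lie well above it.

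The replicative helicase is a ring of 6 Mcm proteins that is loaded on DNA before S phase and unwinds it. All 6 genes were below 0 in null against wild-type hearts, with log2 differences of -0.08 ± 0.16 for Mcm2, -0.17 ± 0.22 for Mcm3, -0.04 ± 0.26 for Mcm4, -0.24 ± 0.18 for Mcm5, -0.08 ± 0.32 for the brighter Mcm6 probe set and -0.16 ± 0.15 for Mcm7. None was past the threshold (adjusted p of 0.9999 for each in limma), and only Mcm5 and Mcm7 exceeded their standard error. The median of the 6 was -0.12, and 51.7% of all tested genes were below 0 in this comparison. All 6 stayed below 0 after quantile scaling, and 5 of 6 did with heart-number blocks. Across the alternatives the share of Mcm genes below 0 ranged from 66.7% to 100%. In heterozygous against wild-type hearts 5 of the 6 were also below 0 (median -0.13). Null against heterozygous hearts had 3 below 0 and 3 above 0 (median 0.03).

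Mcm5 was the most different of the 6. Its intensities were 3251, 2741, 2725 and 3122 in null hearts 3, 4, 8 and N3, then 2596 and 4366 in heterozygous hearts 5 and 12, and 3178, 3401, 3379 and 4089 in wild-type hearts 2, 7, 9 and N1. The highest null heart lay just above the lowest wild-type heart, and the heterozygous pair spanned the whole range of the other hearts.

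The Mcm6 probe sets contradicted each other. D86726_s_at had 915, 1252, 288 and 559 in null hearts, against 1411 and 2126 in heterozygous hearts, and 2162, 502, 676 and 661 in wild-type hearts. Null hearts were all below the heterozygous pair, but 3 of 4 wild-type hearts were below the floor and heart 2 was the highest of all. For aa689977_f_at the intensities were 3933, 3758, 6391 and 5500.1 in null hearts, against 2574 and 6481 in heterozygous hearts, and 4272, 6864, 2995 and 7398 in wild-type hearts, with full overlap. In null minus heterozygous hearts D86726_s_at differed by -0.83 ± 0.33 (unadjusted p = 0.0256, adjusted p = 0.774 in limma) and aa689977_f_at by 0.23 ± 0.40, a gap of 1.06. Probe sets whose names end in f or s can match several family members or transcripts, and which transcripts each of these read was not tested.

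Other replication proteins gave no group pattern, with 5 of 9 genes below 0 in null against wild-type hearts. Pcna, the sliding clamp of the polymerases, had 5477, 4377, 6258 and 6559 in null hearts, then 4730, 7921, 8292 and 8289.9 in heterozygous hearts 5, 6, 12 and N2, and 4416, 6207, 6342, 6032 and 7758 in wild-type hearts 1, 2, 7, 9 and N1. The groups overlapped, and heterozygous heart 5 stood below its group. The log2 difference of Pcna was -0.11 ± 0.20 in null against wild-type hearts and 0.23 ± 0.20 in heterozygous against wild-type hearts. Prim1, the catalytic primase subunit, differed by -0.28 ± 0.19 in null against wild-type hearts. Its intensities were 2210, 1476, 2276 and 2066 in null hearts, against 2207, 2442, 2417 and 2544 in wild-type hearts. Null hearts 3 and 8 lay just above the lowest wild-type heart and the others below all of them.

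Pold2, an accessory subunit of polymerase delta, was measured on the B array in 10 hearts. It had 4449, 3731 and 3635 in null hearts 4, 8 and N3, then 2861, 3261, 2302 and 2504 in heterozygous hearts 5, 6, 12 and N2, and 2955, 3789 and 3186 in wild-type hearts 1, 2 and 7. Null hearts were all higher than heterozygous hearts, and wild-type hearts overlapped both. The log2 difference, null minus heterozygous, was 0.53 ± 0.21 (unadjusted p = 0.0264, adjusted p = 0.774 in limma), and against wild type it was 0.25 ± 0.23.

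G1 regulators showed the second difference below an unadjusted p of 0.05. Ccnd3 encodes cyclin D3, a partner of Cdk4 and Cdk6. Its probe set C78795_rc_f_at had 4310, 4544, 5773 and 5726 in null hearts, then 6877 and 6219 in heterozygous hearts 5 and 12, and 5548, 6248, 6871 and 6965 in wild-type hearts. Null hearts lay below the wild-type hearts apart from wild-type heart 2, at 5548. The log2 difference, null minus wild type, was -0.34 ± 0.15 (unadjusted p = 0.0374, adjusted p = 0.9999 in limma). The second Ccnd3 probe set, u43844_s_at, differed by -0.14 ± 0.15, with 11570, 12645 and 14556 in null hearts against 13628, 15261, 15384 and 12486 in wild-type hearts.

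Ccnd1 and Ccnd2, the other D cyclins, did not separate the genotypes. Ccnd1 had 3108, 1979 and 2326 in null hearts 4, 8 and N3, then 2165, 2520.3, 1416 and 1475 in heterozygous hearts 5, 6, 12 and N2, and 2090.2, 2512 and 2935 in wild-type hearts 1, 2 and 7. Its log2 difference was -0.04 ± 0.28 in null against wild-type hearts and -0.44 ± 0.26 in heterozygous against wild-type hearts. Ccnd2 differed by -0.06 ± 0.34 in null against wild-type hearts, and its large standard error goes with a split by heart number that is described further on. Cdk4, the kinase of the D cyclins, had 14517, 18441, 13466 and 13859 in null hearts against 18867, 14766, 12362 and 17522 in wild-type hearts, a log2 difference of -0.07 ± 0.16. Cdk16, a PCTAIRE kinase, differed by 0.07 ± 0.18. Among the 6 cyclin genes, 5 were below 0 in null against wild-type hearts.

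E2f1, a factor that activates replication genes, was measured by a pair of probe sets. L21973_s_at had 1166, 1085, 972 and 997 in null hearts, then 1303 and 1455 in heterozygous hearts 5 and 12, and 1140, 989, 1150.2 and 1185 in wild-type hearts. The heterozygous pair was above all other hearts, and null and wild-type hearts overlapped near the floor. Its log2 difference, null minus heterozygous, was -0.39 ± 0.16 (unadjusted p = 0.0324, adjusted p = 0.784 in limma). AA270895_s_at, the brighter E2f1 probe set, differed by 0.04 ± 0.20 in the same comparison, with 4 hearts per genotype.

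Of the inhibitors, Cdkn2c (p18, an inhibitor of Cdk4 and Cdk6) had its lowest values in null and heterozygous hearts. It had 902, 1300.4 and 1449 in null hearts 3, 4 and N3, then 866 and 1260.1 in heterozygous hearts 5 and 12, and 1298, 1878, 1603 and 1764 in wild-type hearts 2, 7, 9 and N1. Both heterozygous hearts lay below all wild-type hearts, and the null hearts overlapped both groups. The log2 difference was -0.44 ± 0.23 in null against wild-type hearts (unadjusted p = 0.0722) and -0.62 ± 0.25 in heterozygous against wild-type hearts (unadjusted p = 0.0317, adjusted p = 0.981 in limma). Both comparisons use the same wild-type hearts.

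Cdkn1b (p27, which binds cyclin and Cdk2 complexes) had 2538, 1629, 1957 and 2069.7 in null hearts, then 2630.3, 2313, 3092 and 1988 in heterozygous hearts 5, 6, 12 and N2, and 2164, 1768, 2151 and 1887 in wild-type hearts. The groups overlapped, with log2 differences of 0.03 ± 0.20 in null and 0.32 ± 0.20 in heterozygous hearts against wild type. Cdkn2d (p19) differed by -0.14 ± 0.19 in null against wild-type hearts. Cdkn1a (p21) was not tested, since its A probe set exceeded the floor in no heart and its B probe set in 2 of 10 hearts. Cdkn2a likewise never exceeded it.

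The group of mitotic kinases and checkpoint genes took the Aurora and Polo kinases and the Bub proteins of the spindle checkpoint by name. The names do not select for mitosis alone, since Plk2 is induced in early G1. In null against heterozygous hearts all 7 of these genes, by their brightest probe sets, were below 0 (median -0.13), and in heterozygous against wild-type hearts 6 of 7 were above 0 (median 0.07). In null against wild-type hearts 6 of 7 were below 0 (median -0.06). All 3 comparisons share hearts, and none of the 7 genes passed the threshold. The choice of probe set matters for Aurka, whose 2 tested probe sets had opposite signs. In null minus heterozygous hearts the brighter one differed by -0.05 ± 0.21 and u80932_s_at by 0.41 ± 0.24. In heterozygous minus wild-type hearts they differed by 0.01 ± 0.18 and -0.37 ± 0.26. Bub3 also had probe sets of both signs in the latter comparison, at 0.07 and -0.01. In null against heterozygous hearts all 7 were also below 0 after quantile scaling and with heart-number blocks. It was 6 of 7 without hearts N1, N2 and N3, without null heart 3, without null heart N3 and without heterozygous heart N2, and 1 of the 2 genes still tested without heterozygous heart 12.

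Aurkb, the kinase of the chromosomal passenger complex, had the largest difference of these genes. It had 1178, 1371, 685 and 865 in null hearts 3, 4, 8 and N3, then 1631 and 2014 in heterozygous hearts 5 and 12, and 1326, 928, 1148 and 1024 in wild-type hearts 2, 7, 9 and N1. Both heterozygous hearts lay above all other hearts, of which null hearts 8 and N3 were below the floor. The log2 difference was -0.77 ± 0.23 in null against heterozygous hearts (unadjusted p = 0.00431, adjusted p = 0.774 in limma) and 0.72 ± 0.23 in heterozygous against wild-type hearts (unadjusted p = 0.00649, adjusted p = 0.981). With heart-number blocks the first was -0.74 with an adjusted p of 0.341, the lowest of any named member under any setting tried. In null against wild-type hearts Aurkb differed by -0.05 ± 0.18.

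Plk2, a Polo kinase induced in early G1, had 1904, 1987 and 2254 in null hearts 3, 4 and N3, then 2852 and 2865 in heterozygous hearts 5 and 12, and 3545, 2320, 3039 and 2209 in wild-type hearts. Null hearts were below the heterozygous pair and overlapped the lowest wild-type heart. The log2 difference, null minus wild type, was -0.42 ± 0.22 (unadjusted p = 0.0755, adjusted p = 0.9999 in limma). Plk1, the mitotic Polo kinase, differed by -0.31 ± 0.21, and Bub3, a spindle checkpoint protein, by -0.06 ± 0.15 on its brighter probe set.

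Cdk1, the kinase of mitotic entry, had 12198, 13872 and 11786 in null hearts 3, 4 and N3, then 10461 and 18184 in heterozygous hearts 5 and 12, and 12565, 16346, 18200 and 13675 in wild-type hearts. The groups overlapped, with a log2 difference of -0.26 ± 0.20 in null against wild-type hearts. Its sign turned with heart-number blocks, where the difference was 0.01, and null heart 8 had no value. Cdc25c, a phosphatase that activates Cdk1, had 1035, 809.6 and 1129 in null hearts, then 927 and 687 in heterozygous hearts, and 1019.5, 1196, 1327 and 1212 in wild-type hearts, close to the floor. Both heterozygous hearts lay below the wild-type hearts, and the log2 difference, heterozygous minus wild type, was -0.38 ± 0.17 (unadjusted p = 0.0379, adjusted p = 0.981 in limma). The 9 Cdc genes together had 4 below 0 and 5 above 0 in null against wild-type hearts, and Cdc37, a chaperone partner of kinases, differed by 0.02 ± 0.13. Cdc23, a subunit of the anaphase-promoting complex, differed by -0.15 ± 0.19.

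Markers of dividing cells did not differ by more than their errors between null and wild-type hearts. Mki67, the Ki-67 antigen, had 9719.6, 5698, 10275 and 8279 in null hearts, then 8546, 7903, 12361 and 11457 in heterozygous hearts, and 7309.5, 5973, 9478, 10805 and 10671 in wild-type hearts. The genotypes overlapped widely, with log2 differences of -0.06 ± 0.22 in null and 0.20 ± 0.22 in heterozygous hearts against wild type. Top2a, a topoisomerase of S phase and mitosis, differed by 0.04 ± 0.27 on the B array and 0.06 ± 0.23 on the A array in null against wild-type hearts. For Mki67 the 95% interval in null against wild-type hearts ran from -0.52 to 0.41 on the log2 scale.

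**Figure D4:**
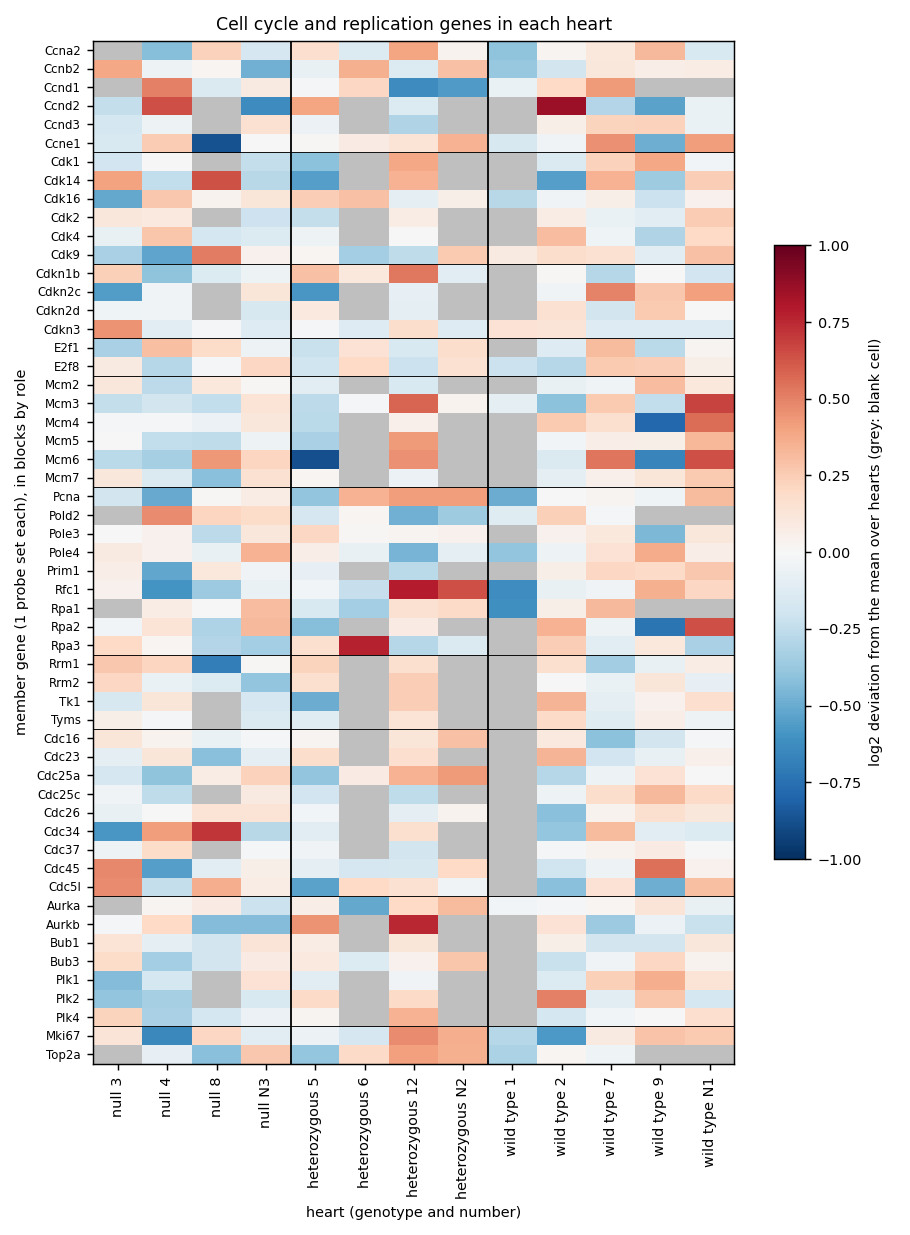
Log2 deviation from the mean over hearts (colour, red higher and blue lower, grey where the cell was blank) of the 55 tested member genes (rows, 1 probe set each, in blocks by role) in each of the 13 hearts (columns, null, heterozygous and wild type). Heterozygous hearts 6 and N2 and wild-type heart 1 are grey for most genes, and no genotype has a uniform colour.

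The second comparison asked what accompanies loss of the domain from 1 allele. In heterozygous against wild-type hearts 0 of 65 members passed the adjusted threshold in limma, where 0% of all tested probe sets did. At an unadjusted p under 0.05 there were 3 members, Aurkb higher and Cdkn2c and Cdc25c lower, where 3.38% of all were. Of the 65, 34 were below 0 (52.3%), where 52.7% of all were, with a median of -0.0029. Each of the 3 rests on heterozygous hearts 5 and 12 alone, as do Aurkb, Mcm6 and E2f1 in the next comparison. Heterozygous hearts were all higher than wild-type hearts in 3 members and all lower in 6. Among all 4494 tested probe sets, 118 were all higher and 129 all lower. Such a separation can rest on only 2 heterozygous hearts.

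In null against heterozygous hearts 0 of 65 members passed the adjusted threshold in limma, where 0% of all tested probe sets did. At an unadjusted p under 0.05 there were 4 members, Aurkb, Mcm6 and E2f1 lower and Pold2 higher, where 5.79% of all were. Below 0 were 38 of 65 (58.5%), where 46.6% of all were, with a median of -0.06 against 0.02. Null hearts were all higher than heterozygous hearts in 2 members and all lower in 7. Among all 4494 tested probe sets, 170 were all higher and 176 all lower. The smallest adjusted p of a member was 0.774, against 0.981 in heterozygous against wild-type and 0.9999 in null against wild-type hearts.

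Genes measured by more than 1 tested probe set show the precision of these values. There were 9 such genes, and their probe sets had the same sign for 7 genes in null against wild-type hearts, 2 in heterozygous against wild-type hearts and 5 in null against heterozygous hearts. The median gap between probe sets of a gene was 0.11, 0.31 and 0.30 in those comparisons on the log2 scale, and the largest gaps were 0.62 for Rrm2, 0.95 for Mcm6 and 1.06 for Mcm6. The gaps have no sign, so they cannot be set against the signed medians of the members. In the same order, the quartiles of the 65 member differences were -0.16 and 0.03, -0.16 and 0.15, and -0.23 and 0.12.

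Heart number went with larger differences than genotype for some members. Hearts 7 to 12 and N1 to N3 were compared with hearts 1 to 6, with genotype in the fit, a comparison chosen after the data were seen. The labels say nothing of what the numbers stand for. Of the 65 members 3 passed the adjusted threshold (4.62%), where 7.14% of all tested probe sets did. Ccnd2 had 3295 in null heart N3, 4648 in heterozygous heart 12 and 4158, 3519 and 4881 in wild-type hearts 7, 9 and N1, against 4329 and 7976 in null hearts 3 and 4, 6714 in heterozygous heart 5 and 9227 in wild-type heart 2. Later-numbered hearts were lower than hearts 1 to 6 apart from null heart 3, which lay among them. The log2 difference of Ccnd2, later minus earlier, was -0.88 ± 0.21 (adjusted p = 0.0284 in limma).

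Mki67 averaged 10475 ± 1324 (SD, n = 7) in later-numbered hearts and 7525 ± 1536 (SD, n = 6) in hearts 1 to 6, a log2 difference of 0.50 ± 0.13 (adjusted p = 0.0294 in limma). Cdc25a, a phosphatase that activates Cdk2 and Cdk1, averaged 1328 ± 164 (SD, n = 7) in later-numbered hearts and 962 ± 210 (SD, n = 5) in hearts 1 to 6, a log2 difference of 0.44 ± 0.12 (adjusted p = 0.038 in limma). The groups by number overlapped for Mki67 and Cdc25a at a few hearts. Within genotypes the numbers are mixed, with 2 null, 2 heterozygous and 2 wild-type hearts among 1 to 6.

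**Figure D5:**
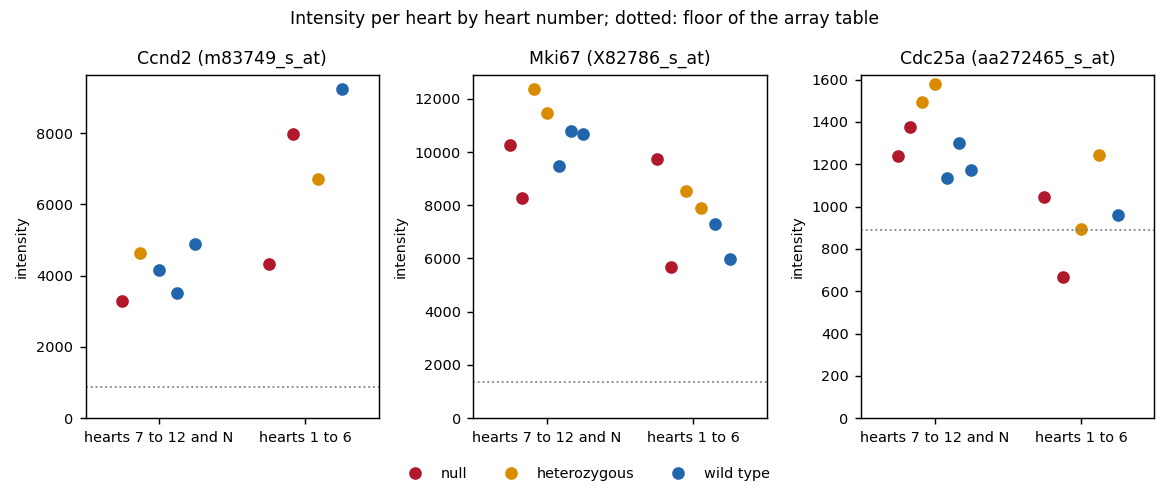
Intensity (y axis, linear from 0) of Ccnd2, Mki67 and Cdc25a in hearts 7 to 12 and N (left) and hearts 1 to 6 (right), coloured by genotype, with the floor of the table dotted. Ccnd2 is lower in the later-numbered hearts apart from null heart 3, and Mki67 and Cdc25a average higher in them.

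Pathway genes that the rule did not take were read from 3 further lists. Of the S phase and replication genes 39 were listed, 23 were on the arrays and 11 were tested, and 0 of 11 passed in any comparison. All 11 (Cdt1, Ctps, Dnmt1, Fen1, Lig1, Nasp, Nme1, Orc5, Slbp, Top1 and Umps) were below 0 in null against wild-type hearts, with a median of -0.17. Of all tested genes 51.7% were. After quantile scaling 9 of 11 were, and across the alternatives the share of this list below 0 ranged from 52.2% to 100%. In heterozygous against wild-type hearts 7 of 11 were below 0 (median -0.07), and in null against heterozygous hearts 6 of 11 (median -0.01). Cdt1, which loads the Mcm ring, differed by -0.35 ± 0.19, Slbp, which binds histone mRNA, by -0.36 ± 0.26, and Fen1, which trims Okazaki fragments, by -0.23 ± 0.14. Dnmt1, the maintenance DNA methyltransferase, differed by -0.56 ± 0.26 in null against heterozygous hearts (unadjusted p = 0.0494, adjusted p = 0.79 in limma).

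The G2 and mitosis list had 26 tested genes, with 12 below 0 and 14 above 0 in null against wild-type hearts. The control list had 14, with 6 below 0 and 8 above 0, and neither held a gene past the threshold. Tfdp1, the dimer partner of E2F factors, averaged 2474 ± 626 (SD, n = 4) in null hearts, 2864 ± 340.3 (SD, n = 4) in heterozygous hearts and 3643 ± 564 (SD, n = 5) in wild-type hearts. On the log2 scale null minus wild type was -0.58 ± 0.21 (unadjusted p = 0.0138, adjusted p = 0.9999 in limma).

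Of the member genes, 17 had no tested probe set. They were Ccna1, Ccnb1ip1, Cdc6, Cdc73, Cdk5, Cdk7, Cdk18, Cdkn1a, Cdkn2a, Cdkn2aipnl, E2f3, E2f5, Pola1, Pola2, Pold1, Pold4 and Prim2. Pola2 and Cdk18 came closest, each above the floor in 3 hearts, and at this depth of signal a difference in these genes was not detectable.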

How the data were processed

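Values were linear intensity, 1 per probe set and array, as deposited by the authors in 1 table per array design. On arrays without blank cells the deposited intensity values have a mean of 1500 between the 2 and 98 percentiles, and negative values make up 10.1% to 29.5% of an array. What was subtracted to give these negatives is not stated, and no source used here names the software. Gene symbols came from the platform annotation, looked up by gene ID in RefSeq GRCm38.p6.

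Intensities below 2 times the noise of their table (the root of the mean squared negative value) were raised to that floor, then log2 was taken. Blank cells were missing values. Differences between genotypes were estimated by limma 3.58.1 (R 4.3.3) in 1 fit per table over all 13 hearts with a variance trend, two-sided, with Benjamini-Hochberg adjustment over the 4494 tested probe sets of both tables and a threshold of 0.05. The procedure was tested on simulated data in which the changed probe sets were shifted by 2 log2 units in null hearts. Smaller shifts, such as the differences of the members, were not simulated. The alternatives were quantile scaling, floors at 1 and 3 times the noise, no filter, leaving out the 6 mostly blank arrays or the N hearts, heart-number blocks, and leaving out each heart. For genes with several probe sets, the one with the highest mean stood for the gene.

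The members, the lists and the comparison by heart number were chosen with earlier results of these data known, so no list was tested as a whole. Named members were those with the smallest p or highest signal in each role, those with an unadjusted p under 0.05, those whose null and wild-type hearts did not overlap, and 14 well known genes. The number of arrays limits the precision.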

Additional observations from a re-analysis of the deposited data

Results flagged for a closer look

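Samples far from the others of their genotype were sought in 65 groups of 4 or 5 hearts by Dixon's test, and 4 were found. Chance alone flags about 1 in 20 groups, so 4 of 65 is close to the chance rate. The Mcm3 intensity of null heart N3 was 2012, where the other null hearts were at 1540 to 1614. The Mcm6 D86726_s_at intensity of wild-type heart 2 was 2162, where the others were at 502 to 676, below the floor. The Pcna intensity of heterozygous heart 5 was 4730, where the others were at 7921 to 8292. The median log2 deviation of the member genes in wild-type heart 1 was -0.28, where the other wild-type hearts were at -0.0017 to 0.07, and that median rests on 17 genes.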

How the results depend on the processing

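Under all 20 alternatives, 0 members passed the threshold in limma in any comparison, where 0 to 6 had an unadjusted p under 0.05. The median of the member genes stayed below 0 in null against wild-type hearts (-0.10 to -0.01). It took both signs in heterozygous against wild-type (-0.02 to 0.10) and null against heterozygous hearts (-0.11 to 0.01). Of 1833 alternative values for 99 differences of named members, 93 changed sign, but only Cdk1 in null against wild-type hearts did so from a difference larger than its standard error, to 0.0106 with heart-number blocks (null heart 8 had no value; the cause was not tested). Over all probe sets, the count called in null against wild-type hearts (1) was 2 with the lower floor, 0 with no filter, 0 without the mostly blank arrays, 0 without the N hearts, 4 with heart-number blocks, and 0 to 3 when each heart was left out. In heterozygous against wild-type hearts it was 1 with no filter, and in null against heterozygous hearts 1 with no filter and 1 with heart-number blocks. Leaving out heterozygous heart 5 or 12 left 29 members tested, because most A values of hearts 6 and N2 were blank. No paired analysis was possible because the genotypes share no heart number. Signal near the floor limits Aurkb, Cdc25c, Cdkn2c, E2f1 L21973_s_at and Mcm6 D86726_s_at.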
